A study of Rattus norvegicus with 5 samples.

Results

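The genes described here are 34 genes of glycolysis and of the response to low oxygen, taken by name from the 14506 genes that the arrays measured with a probe set of their own. Each gene was represented by the probe set that names it alone, and by the brightest such probe set, by mean intensity over the 5 arrays, where it had several. All 34 were measured, 20 of them enzymes or regulators of glycolysis and pyruvate use. The other 14 were genes of oxygen sensing or targets of the hypoxia-inducible factors. Total RNA was measured in proximal tubular cells, the epithelium that lines the first stretch of the nephron. They were isolated from the kidney of rats with type I diabetes, of the Sprague-Dawley strain. Cells of 3 animals received C-peptide, the peptide that joins the insulin chains in proinsulin, for 2 h. Cells of 2 animals were left untreated, and both groups were diabetic. The labels give no age, sex or way of inducing diabetes, and do not say whether the same animal gave cells to both groups. The comparison asks how C-peptide alters transcription in these cells within hours.

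Glycolysis splits glucose into pyruvate, which the cell either oxidises in mitochondria or reduces to lactate. The proximal tubule is known for burning fatty acids and for making glucose, and relies little on glycolysis. When oxygen is short, the hypoxia-inducible factors (HIF) escape hydroxylation by the prolyl hydroxylases of the Egln family and breakdown through the von Hippel-Lindau protein, and switch on many glycolytic enzymes and genes of matrix, acid balance and mitophagy.

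Array medians ranged from 60.1 to 95.9 in the deposited intensities, so the arrays were brought to 1 distribution by quantile normalisation before the comparison. Normalised intensities are printed throughout, and differences are those of mean log2(normalised intensity + 16), C-peptide minus untreated, with their standard error (SE). Over all probe sets the median difference was 0.02. Defining markers of the labelled cell type were present, as Lrp2, Slc34a1, Slc5a2 and Aqp1 were at 1099 to 5085 on every array. All 12 proximal tubule markers had a positive difference (median 0.56), all 12 endothelial markers a negative one (median -1.16), and all 12 immune markers a negative one (median -0.48). Differences were positive for 5 of 6 collecting duct markers (median 0.23) and 3 of 6 thick limb and distal markers (median 0.16). They were positive for 2 of 6 stromal and smooth muscle markers (median -0.19) and 1 of 3 red blood cell markers measured (median -0.06). No probe set passed the limma test at adjusted p 0.05 (0 of 29215, 0%).

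The 34 genes had small differences, and counts near those of all genes brighter than the median probe set. Their median difference was 0.07, with 23 above 0 and 11 below, beside 15653 of all 29215 probe sets above 0. None passed at adjusted p 0.05 in limma, 3 were lower and 3 higher at unadjusted p under 0.05, and over all probe sets 6.3% were lower and 5.06% higher at that level. The 3 lower genes were Epas1, Egln3 and P4ha2, and the 3 higher genes P4ha1, Tpi1 and Pklr. Both groups of arrays were fully separated for 12 of the 34, with 8 higher (23.5%) and 4 lower (11.8%) in all C-peptide arrays, against 16.1% and 13.8% of all probe sets. Of the 34, 32 exceeded the median probe set in brightness. Among the 8561 genes that bright, separation was found for 22.1% (higher) and 17.7% (lower), and an unadjusted p under 0.05 for 7.57% (higher) and 9.31% (lower). Both shares of the 34 genes at unadjusted p under 0.05 were 8.82%. The counts at unadjusted p under 0.05 changed when single arrays were left out. Leaving out C-peptide animal 2 gave 5 higher genes at that level, leaving out C-peptide animal 3 gave 1, and leaving out untreated animal 2 gave 0 higher and 1 lower. Separated higher genes numbered 13 when C-peptide animal 2 was left out. Separation is easier to reach with fewer arrays, and no share of all probe sets is given for that fit. The median difference of the 34 genes was 0.16 in the fit lacking untreated animal 1 and -0.01 in that lacking untreated animal 2.

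**Figure D1:**
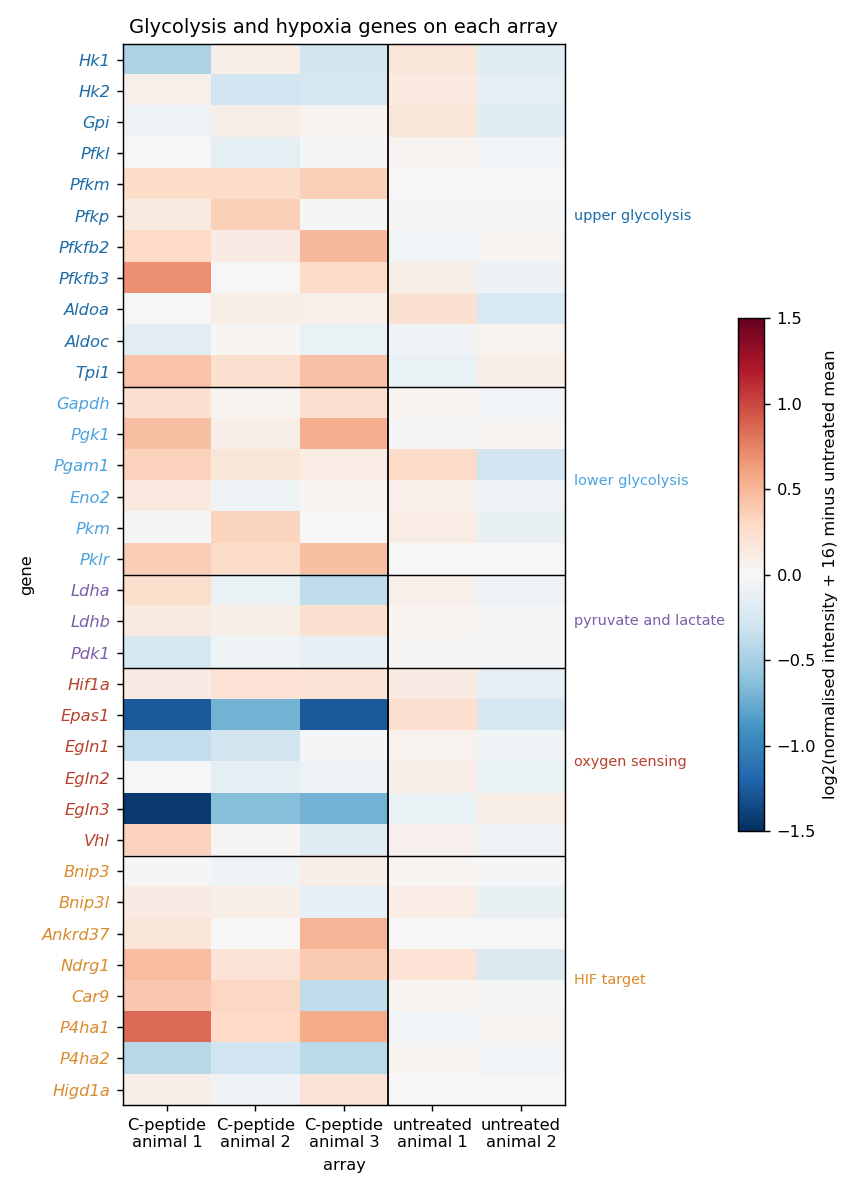
Each row is a gene and each column an array. Colour gives log2(normalised intensity + 16) minus the mean of the 2 untreated arrays, blue for lower and red for higher, and names are coloured by role. Epas1 and Egln3 are blue on all 3 C-peptide arrays, while most other rows stay pale.

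Epas1 and Egln3 were the 2 genes lowest with C-peptide, and the collagen prolyl hydroxylases P4ha1 and P4ha2 were a pair with opposite signs. For these 4 genes the 170 bases before the annotated start, from RefSeq on the rat assembly GRCr8, are shown to set the lowest genes beside the opposed pair. Capitals mark ACGTG or GCGTG, the core letters of the hypoxia response element, on either strand (read as CACGT or CACGC on the other strand, so that CACGTG holds 2 overlapping matches). The stretches are chr6:13624730-13624899 for Epas1 and chr6:77411016-77411185 for Egln3, both on the minus strand, and chr20:27844876-27845045 for P4ha1 and chr10:38743724-38743893 for P4ha2, both on the plus strand.
Epas1: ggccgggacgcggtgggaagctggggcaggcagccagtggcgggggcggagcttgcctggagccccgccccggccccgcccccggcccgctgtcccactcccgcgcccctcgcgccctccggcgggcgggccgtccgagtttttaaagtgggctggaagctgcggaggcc
Egln3: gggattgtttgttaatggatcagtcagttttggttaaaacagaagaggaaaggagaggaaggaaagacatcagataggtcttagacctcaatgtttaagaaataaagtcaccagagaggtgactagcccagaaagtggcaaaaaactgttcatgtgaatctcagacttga
P4ha1: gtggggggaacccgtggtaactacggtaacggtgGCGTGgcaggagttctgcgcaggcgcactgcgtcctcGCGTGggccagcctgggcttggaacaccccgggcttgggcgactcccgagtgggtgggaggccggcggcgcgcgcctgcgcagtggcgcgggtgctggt
P4ha2: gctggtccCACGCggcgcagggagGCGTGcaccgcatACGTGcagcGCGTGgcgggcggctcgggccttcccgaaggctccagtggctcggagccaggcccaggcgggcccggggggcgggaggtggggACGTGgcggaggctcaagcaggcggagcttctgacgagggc

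The core letters stood 2 times in the P4ha1 stretch and 5 times in that of P4ha2, and in neither of the other 2 stretches. These 4 genes were chosen for their differences, and the letters were not tested against the differences. Of the 34 genes, 31 had a window in the RefSeq table, which spans 250 bases before to 50 after the start. ACGTG was in 19 of their 34 windows (55.9%; some genes had several windows) and GCGTG in 14 (41.2%). Over all 33469 windows these shares were 19.3% and 29.7%. The windows of these genes were also richer in G and C, with a median of 63.7% against 51.7% over all windows. A match describes letters and not a bound site.

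Among the genes of oxygen sensing, Epas1 and Egln3 held the lowest differences of the 34. Epas1 encodes HIF-2 alpha, the HIF subunit named for its expression in endothelial cells. Normalised intensities were 1795 (animal 1), 2647 (animal 2) and 1800 (animal 3) with C-peptide, against 5157 (animal 1) and 3635 (animal 2) without. The groups did not overlap, and among the C-peptide arrays that of animal 2 was the highest. Means were 2081 ± 490 (SD, n = 3) with C-peptide and 4396 ± 1080 (SD, n = 2) without, a 2.11-fold lower level (log2 difference -1.08 ± 0.23, SE). It did not pass over all probe sets in limma, with a p of 0.00227 and an adjusted p of 0.17. Of the 16 alternative settings tried, annotated symbols and mean probe sets could not change Epas1, which has 1 probe set and no updated symbol. The difference kept its sign under all 16, at -1.35 to -0.84 when single arrays were left out. Its unadjusted limma p was under 0.05 in all settings that kept both untreated arrays. In 2 of those settings it passed: at adjusted p = 0.0394 in limma when only probe sets brighter than the median were tested (386 of 14607, 2.64%, passed), and at adjusted p = 0.0353 when only probe sets with 1 gene symbol were tested (329 of 15310, 2.15%). In the values as deposited, where 52 probe sets (0.178%) passed, Epas1 was at an adjusted p of 0.099 in limma.

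Egln3 encodes the prolyl hydroxylase PHD3, itself a HIF target that marks HIF for breakdown. It was at 50.92, 100.5 and 94.66 on the C-peptide arrays of animals 1, 2 and 3, against 153.9 and 177.6 on the untreated arrays of animals 1 and 2. The groups did not overlap, and C-peptide animal 1 was the lowest of the 5 arrays. The mean was 82.03 ± 27.1 (SD, n = 3) with C-peptide and 165.7 ± 16.7 (SD, n = 2) without, 1.9-fold lower (log2 difference -0.93 ± 0.25, SE). In limma p was 0.00732 and adjusted p 0.243. The alternatives with annotated symbols and with mean probe sets could not change Egln3 either, as it also has 1 probe set. Its unadjusted p was 0.0542 without untreated animal 2 and under 0.05 in the other 15 alternative settings.

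Endothelial markers were low on the same arrays as both genes. All 12 were below 0, and 11 of them were lower in every C-peptide array, all but Plvap. Their summed intensity was 8684 to 13667 on the C-peptide arrays and 21146 to 24782 on the untreated ones, with C-peptide animal 2 the highest of the treated arrays, as it was for Epas1 and Egln3. For Egln3 the order otherwise differed: C-peptide animals 1 and 3 had sums of 8880 and 8684 and Egln3 at 50.92 and 94.66, and untreated animal 2 had the lower sum and the higher Egln3 of the untreated pair. None of the endothelial markers was at 0 on any array, and apart from Plvap (-0.11) and Sox18 (-2.08) they had differences of -1.46 to -0.93, the range in which Epas1 and Egln3 also lay. The summed intensity of the 12 immune markers was 6210 to 8360 with C-peptide and 9215 to 10306 without. That of the 5 podocyte markers measured, 4 of them below 0, was 1035 to 1630 with C-peptide and 2467 to 3112 without. Podxl (-1.32) alone gave 732.5 to 1362 of this sum with C-peptide and 2152 to 2699 without. Synpo (-0.65) and Ptpro (-0.36) were also lower on every C-peptide array, while the groups overlapped for Nphs1 (0.11) and Wt1 (-0.17). In such a bulk sample, fewer cells of a type and less RNA per cell cannot be told apart, and the part of endothelial, immune and podocyte RNA in these 2 differences was not tested.

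The remaining genes of oxygen sensing differed less than that. Hif1a, the ubiquitous HIF alpha subunit, was at 1047, 1113 and 1107 with C-peptide and 1040 and 879 without, so that the groups were separated but by little (log2 difference 0.18 ± 0.15, SE). Its 95% interval ran from -0.16 to 0.52, and in the values as deposited the difference was -0.01. The Epas1 interval, -1.63 to -0.53, lay wholly below 0. Of the other prolyl hydroxylases, Egln1, the main oxygen sensor of most cells, was at -0.22 ± 0.16 with a second probe set at -0.3, and Egln2 at -0.07 ± 0.14. Vhl, which carries hydroxylated HIF to the ubiquitin system, was at 0.06 ± 0.18. Groups overlapped for Egln2, Vhl and the brighter Egln1 probe set, while the second Egln1 probe set was lower on every C-peptide array.

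**Figure D2:**
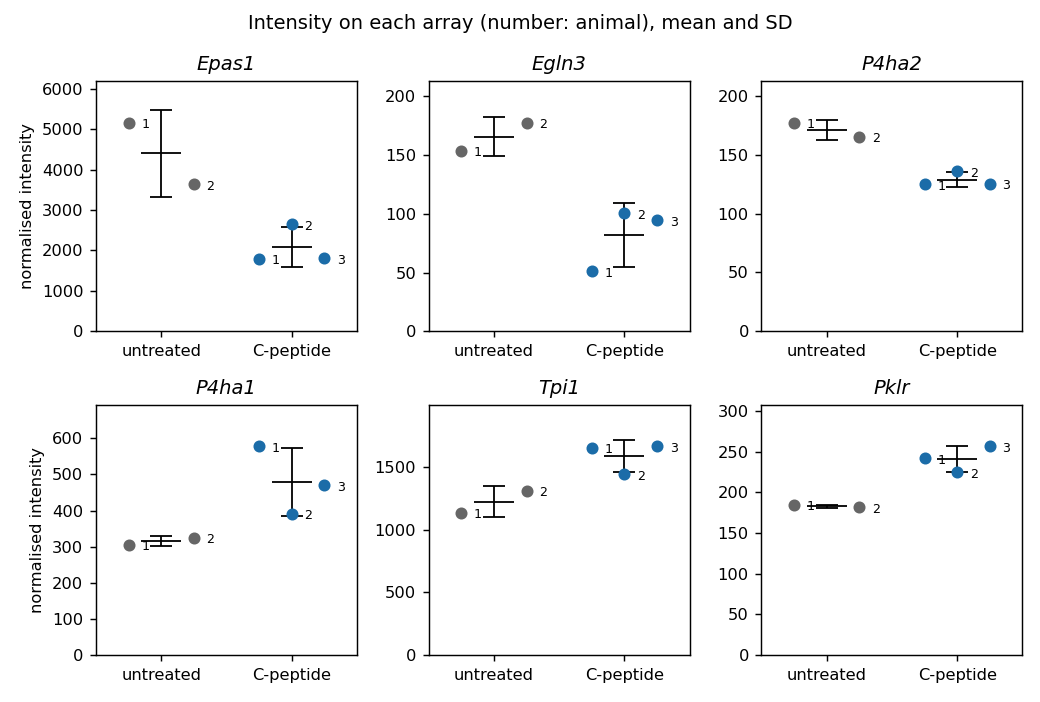
Normalised intensity (vertical axis, from 0) of the 6 genes with an unadjusted p under 0.05, by group, with 1 point for each array numbered by animal and bars for the mean and SD. In the upper row all C-peptide points lie below the untreated ones, and in the lower row all lie above them.

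Among HIF targets, the paired collagen prolyl hydroxylases P4ha1 and P4ha2 lay on opposite sides of 0. Both encode catalytic subunits of the enzyme that hydroxylates proline in collagen, and both are known hypoxia targets. P4ha1 was at 577.5, 391.1 and 469.5 with C-peptide and at 304.8 and 324.6 without, on the arrays of animals 1, 2, 3 and of animals 1, 2. All C-peptide arrays were higher, C-peptide animal 1 most of all. The mean was 479.4 ± 93.6 (SD, n = 3) against 314.7 ± 14 (SD, n = 2), 1.48-fold higher, at a log2 difference of 0.57 ± 0.19 (SE), above that of every other gene of the 34. The limma p was 0.0178 and adjusted p 0.333, and the p was 0.0883 or 0.0568 when untreated animal 1 or 2 was left out, and 0.191 in the values as deposited.

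P4ha2 was at 124.9, 136 and 125.2 with C-peptide against 177.3 and 165.4 without. It was lower on all C-peptide arrays, with little spread in either group. Its mean was 128.7 ± 6.31 (SD, n = 3) and 171.4 ± 8.39 (SD, n = 2), 1.3-fold lower, at a log2 difference of -0.37 ± 0.14 (SE). The limma p was 0.0282 and adjusted p 0.381. That p was 0.0661 when C-peptide animal 3 was left out, and 0.13 or 0.0669 when untreated animal 1 or 2 was.

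The other HIF targets had overlapping groups, and apart from Ndrg1 they stayed near 0 or varied from array to array. Ndrg1, a stress-responsive gene of differentiation, was at 5167, 4315 and 4913 with C-peptide and 4356 and 3202 without, at a log2 difference of 0.36 ± 0.18 with overlapping groups. Its limma p was 0.0873. After centring the difference was 0.48 (limma p of 0.0349), and in the values as deposited 0.32 (limma p of 0.235). Bnip3 and Bnip3l, which mark mitochondria for removal, were at 0.02 ± 0.14 and 0.03 ± 0.15. Higd1a, a mitochondrial protein that hypoxia induces, was at 0.08 ± 0.14. Ankrd37, an ankyrin-repeat HIF target, was at 0.22 ± 0.18, where C-peptide animal 3 alone was at 136.4 and the other arrays at 90.8 to 105.7. Car9, the membrane carbonic anhydrase that is among the most HIF-dependent genes in tumours, was dim, at 80.25, 74.02 and 39.95 with C-peptide and 58.53 and 55.2 without (0.11 ± 0.24). The C-peptide arrays of Car9 lay on both sides of the untreated ones. Of the 8 HIF targets 7 were above 0 after quantile normalisation, 6 with arrays centred on their median and 3 in the values as deposited.

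The enzymes of glycolysis showed small differences, with a median of 0.13 over 20 genes and a range of -0.22 to 0.37. Positive differences were found in 14 of them after quantile normalisation and after centring, but in 9 in the values as deposited, where the median was -0.07. Groups were separated with C-peptide higher in 6 of the 20 (30%) and with C-peptide lower in 1 (5%). These shares were 16.1% and 13.8% of all probe sets, and 22.1% and 17.7% of all genes brighter than the median probe set. Over all 34 genes, separated higher genes numbered 8 after quantile normalisation and 3 in the values as deposited.

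In the upper part of the pathway, Tpi1, triose phosphate isomerase, which interconverts the triose phosphates, had a normalised intensity of 1654, 1443 and 1665 on the C-peptide arrays and 1136 and 1313 on the untreated ones. All 3 C-peptide arrays were higher. The mean was 1587 ± 125 (SD, n = 3) against 1225 ± 125 (SD, n = 2), 1.29-fold higher (log2 difference 0.37 ± 0.15, SE). The limma p was 0.0424 and adjusted p 0.42. Leaving out C-peptide animal 1 or 3 gave a p of 0.0813 or 0.102, leaving out untreated animal 1 or 2 gave 0.213 or 0.0544, the values as deposited gave 0.493, centred arrays 0.104 and a pseudocount of 1 gave 0.0622.

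Phosphofructokinase commits sugar to glycolysis and has 3 subunit genes. Pfkm, the muscle-type subunit, was at 444.7, 444.7 and 472.6 with C-peptide against 363.8 and 367.7 without, separated and with little spread, at 0.30 ± 0.13 with a limma p of 0.0585. Pfkl, the liver type, was at -0.06 ± 0.14 and Pfkp, the platelet type, at 0.16 ± 0.16, both with overlapping groups. Of the enzymes that make the activator fructose 2,6-bisphosphate, Pfkfb2 was at 272.9, 239.7 and 310.4 against 211.3 and 224.7 (0.30 ± 0.16), separated. Pfkfb3, the inducible form, was at 1029 on the array of C-peptide animal 1 and at 596.7 to 779.8 on the other 4, so that the groups overlapped (0.32 ± 0.22). Its unadjusted limma p was 0.178 over all arrays and 0.0467 without C-peptide animal 2.

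The hexokinases, which trap glucose in the cell, lay below 0. Hk1 was at 279, 420.4 and 324.5 with C-peptide and 448.1 and 347.2 without (-0.22 ± 0.21), and Hk2 at -0.15 ± 0.18. Gpi, which converts glucose 6-phosphate to fructose 6-phosphate, was at 0.01 ± 0.16. The aldolases, which split fructose bisphosphate, were at 0.05 ± 0.17 (Aldoa) and -0.08 ± 0.14 (Aldoc). All 5 had overlapping groups, and the intervals of Hk1 (-0.71 to 0.27) and Gpi (-0.37 to 0.4) show the size of difference that 5 arrays leave unresolved.

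In the lower part, all 6 genes were above 0 after quantile normalisation and after centring, and 4 of them in the values as deposited. Pklr, the pyruvate kinase of liver, red cells and kidney, was at 242, 224.5 and 256.5 with C-peptide and at 184.4 and 181.6 without. All C-peptide arrays were higher, and the untreated ones nearly coincided. Its mean was 241 ± 16 (SD, n = 3) against 183 ± 2.01 (SD, n = 2), 1.29-fold higher (log2 difference 0.37 ± 0.14, SE), at a limma p of 0.0317 and adjusted p of 0.391. The p was 0.0844 when C-peptide animal 3 was left out, 0.0945 or 0.114 when untreated animal 1 or 2 was. The deposited values gave 0.626 and centred arrays 0.0953. Pkm, the pyruvate kinase of most other tissues, was at 0.11 ± 0.17 with overlapping groups.

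Pgk1, which makes the first ATP of the pathway and is a standard HIF target, was at 1959, 1521 and 2099 with C-peptide against 1400 and 1469 without. The groups were separated, with C-peptide animal 2 close to the untreated arrays (0.36 ± 0.18, a limma p of 0.08). Gapdh, often used as a reference gene, was at 9680, 8522 and 9782 against 8522 and 8008. One C-peptide array equalled the higher untreated one (0.17 ± 0.14). In the values as deposited it was at 8858, 9204 and 9421 against 7346 and 8670, with all C-peptide arrays higher. The 16 Gapdh probe sets had differences of 0.1 to 0.32, all positive, and most of them separated the groups. The one at 0.32 had a limma p of 0.0468 and an adjusted p of 0.432. Processed copies of this gene are common in the genome, so which locus each probe set reads is uncertain. Pgam1 was at 0.21 ± 0.20 and the neuronal enolase Eno2 at 0.04 ± 0.15, both with overlapping groups. The second probe set of Pgam1 was at -0.09.

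At the branch from pyruvate, the 2 subunits of lactate dehydrogenase differed little. Ldhb, the subunit of oxidative tissue, was at 2608, 2522 and 2797 with C-peptide and at 2422 and 2339 without, separated by a narrow margin (0.15 ± 0.14). Ldha, the hypoxia-inducible subunit, was at 2426, 1876 and 1539 against 2133 and 1907, with C-peptide arrays on both sides of the untreated ones (-0.08 ± 0.21). A second, dimmer Ldha probe set was at 0.3 and separated the groups, so the 2 probe sets of this gene disagreed in sign. Pdk1, the kinase that keeps pyruvate out of mitochondria and a HIF target, was at 106.1, 122.2 and 117 against 130.5 and 126.4. It was lower on every C-peptide array, but by little (-0.14 ± 0.14).

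**Figure D3:**
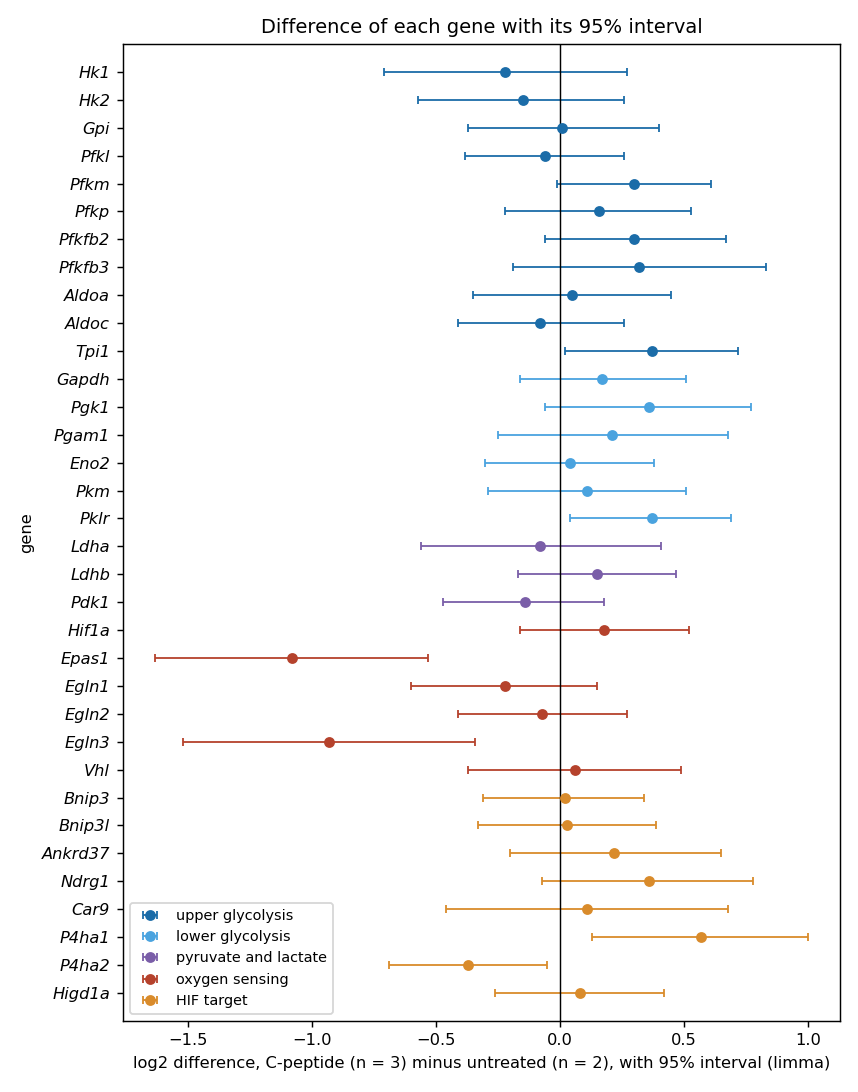
Log2 difference of each gene, C-peptide (n = 3) minus untreated (n = 2), with its 95% interval from limma, coloured by role. The intervals of Epas1, Egln3 and P4ha2 lie below 0 and those of Tpi1, Pklr and P4ha1 above it, before adjustment for the number of probe sets, and all others cross 0.

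Other genes of the same pathways were listed apart from the 34. Of 14 further glycolytic genes measured, 6 were above 0 and the median was -0.05, below the median of 0.13 of the 20 glycolysis genes among the 34. Eno1, the main enolase, was at 3655, 3308 and 3855 with C-peptide and 2623 and 2139 without, 1.52-fold higher (log2 difference 0.60 ± 0.16, SE), with a limma p of 0.00626 and adjusted p of 0.226. It was the only one of the 14 with an unadjusted limma p under 0.05 (0.073 in the values as deposited), and all C-peptide arrays lay above the untreated ones. Eno1 had 3 probe sets, and these values are those of the brightest alone. The groups were also separated for Pfkfb4 (0.46), Bpgm (0.28) and Pdk3 (0.31), higher, and Pfkfb1 (-0.14), lower.

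Of the 7 glucose and lactate carriers, Slc2a2, the glucose exit carrier of the early proximal tubule, was at 1426, 861.3 and 990.4 with C-peptide and 714.5 and 745.7 without (0.54 ± 0.22, a limma p of 0.0434, and of 0.175 in the values as deposited). All C-peptide arrays were higher, on arrays where all 12 proximal tubule markers were above 0. Slc2a3, the high-affinity glucose carrier, was at 34.53, 34.11 and 29.94 against 58.18 and 43.31, lower on every C-peptide array (-0.44 ± 0.16, a limma p of 0.0246, and of 0.0559 in the values as deposited). The hypoxia-inducible carrier Slc2a1 was at 0.12 (-0.12 in the values as deposited) with overlapping groups. The lactate carrier Slc16a7 was at 0.44 with separated groups.

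Of 21 further hypoxia genes measured, 14 were above 0 after quantile normalisation, 11 after centring and 7 in the values as deposited, and the median was 0.10. Pfkfb4 was also among the further glycolytic genes above, and Slc2a1 among the carriers. At unadjusted limma p under 0.05, 3 of the 21 were higher (14.3%) and 1 lower (4.76%). These shares were 5.06% and 6.3% of all probe sets, and 7.57% and 9.31% of all genes brighter than the median probe set. In the values as deposited the limma p was 0.0793 for Adm, 0.149 for Tfrc and 0.363 for Car12, the 3 higher genes, and 0.0438 for Plod1, the lower one. Adm, the vasodilator peptide adrenomedullin, was at 307, 229.9 and 293.6 with C-peptide and 144.5 and 178.6 without, 1.65-fold higher (0.72 ± 0.18), with a limma p of 0.00466 and an adjusted p of 0.209. Tfrc, the transferrin receptor, was at 0.69 ± 0.22 and Car12, a carbonic anhydrase, at 0.40 ± 0.16, while Plod1, a collagen lysyl hydroxylase, was at -0.38 ± 0.16. All 4 had separated groups, and so had Pfkfb4 (0.46), Kdm3a (0.19, but -0.04 in the values as deposited) and Fam162a (0.21), higher, and Ero1a (-0.24), lower. Vegfa, a classical HIF target, was at 0.10 (-0.10 in the values as deposited) with overlapping groups.

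**Figure D4:**
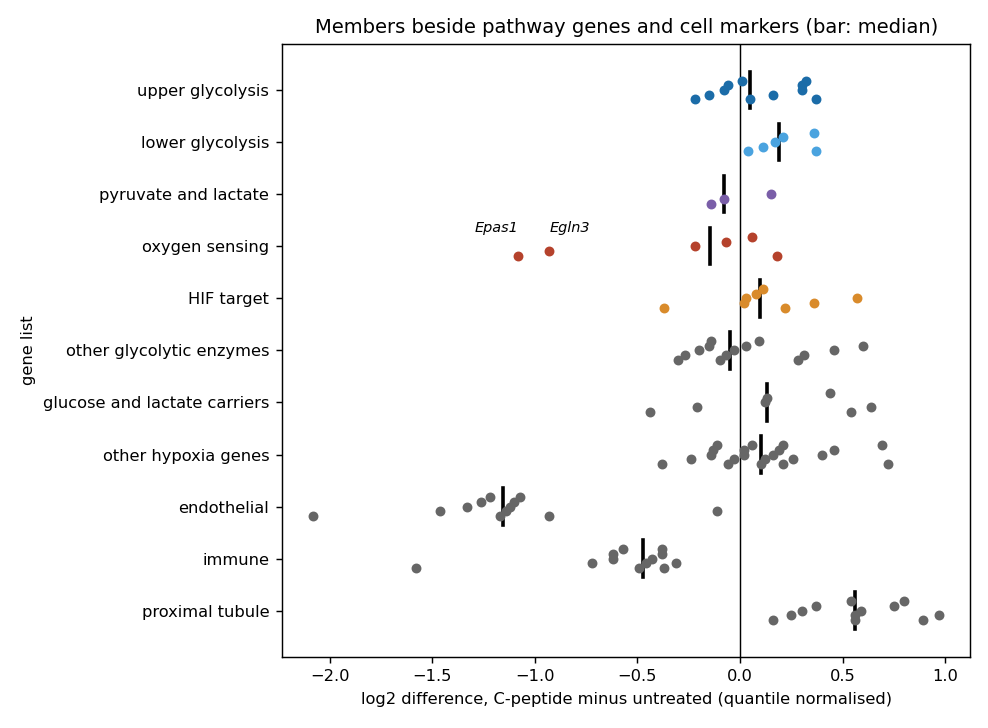
Each point is a gene, placed by its log2 difference after quantile normalisation, in rows by list, and bars mark the medians. Epas1 and Egln3 lie apart from the other oxygen sensing genes, at values where the endothelial markers (median -1.16) lie. The proximal tubule markers (median 0.56) are all above 0.

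How the arrays were put on 1 scale decided the sign of many of these small differences. In the values as deposited the median difference over all probe sets was -0.13. Of the 34 genes 12 were above 0, beside 8257 of all 29215 probe sets. After centring the arrays on their medians the median difference was 0.04, and 21 of the 34 were above 0, beside 16289 of all probe sets. Epas1 and Egln3 were at -1.18 and -1.1 as deposited and at -1.01 and -0.93 after centring. P4ha1 was at 0.35 and 0.52, P4ha2 at -0.59 and -0.42, Tpi1 at 0.18 and 0.35, and Pklr at 0.13 and 0.3, so that all 6 kept their sign. The 11 genes that were above 0 after quantile normalisation and below it as deposited were Gpi, Pfkp, Aldoa, Eno2, Pkm, Hif1a, Vhl, Bnip3, Bnip3l, Car9 and Higd1a. After centring, Bnip3 was at -0.01 and Vhl at 0.00.

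**Figure D5:**
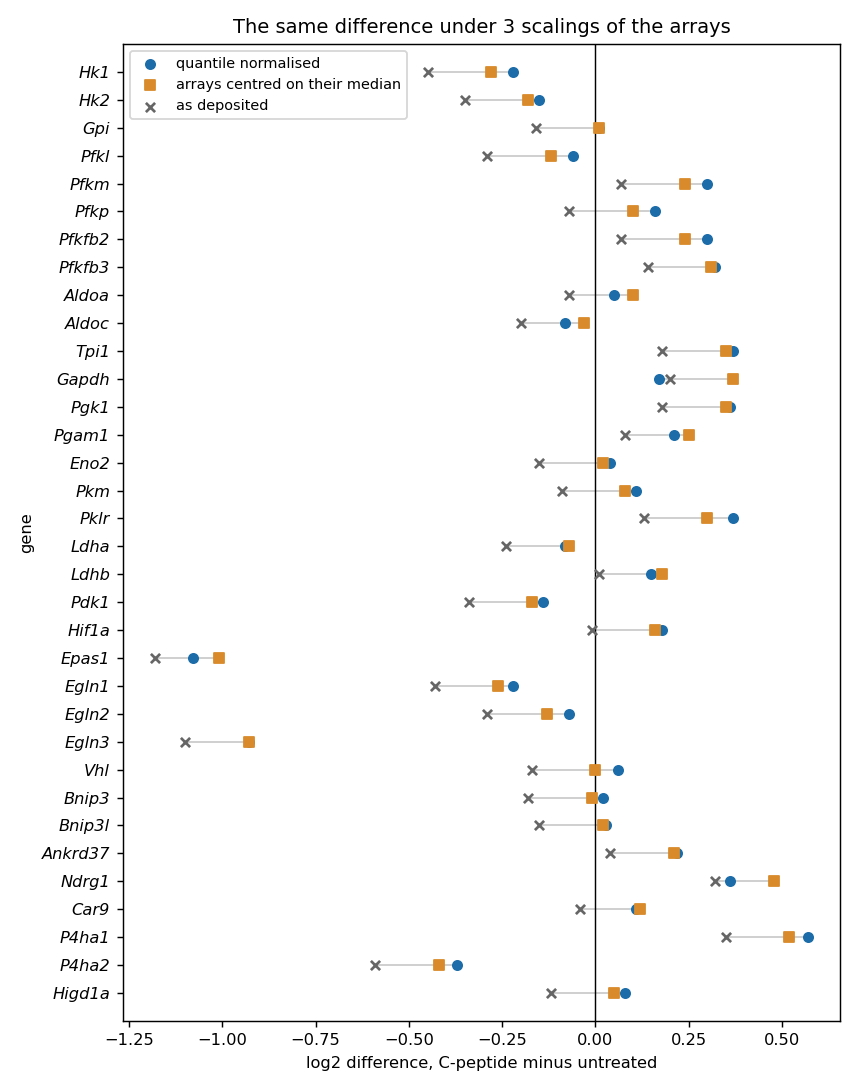
Log2 difference of each gene under 3 scalings, namely quantile normalisation (circles), arrays centred on their median (squares) and values as deposited (crosses). Deposited values lie to the left of the quantile-normalised ones for all genes but Gapdh, and 12 of the 34 crosses are above 0.

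The 34 genes varied between arrays of 1 group about as other genes did. Their median within-group SD was 0.15 on the log2 scale, against 0.16 for genes brighter than the median probe set. Spread was widest for Egln3 (0.37), Car9 (0.35) and Epas1 (0.33), and narrowest for Pfkm (0.04). The array of untreated animal 2 was the lowest of the 5 for 12 genes, and that of untreated animal 1 the highest for 10, so the untreated arrays themselves stood on both sides of the others.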

How the data were processed

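RNA of each animal was amplified, made into biotin-labelled cDNA and read on 1 array, per the labels. The deposited intensities are linear probe-set values that, per the submitters' processing notes, come from PLIER and Affymetrix Expression Console 1.1. The sources used here do not give how the authors corrected background or scaled arrays. Of 29215 probe sets, 15310 carried 1 symbol, updated through RefSeq (GRCr8), where 15279 were found. The table was quantile normalised, taken to log2(value + 16), which understates changes of dim genes, and fitted over all probe sets in R 4.3.3 by limma 3.58.1 (lmFit, eBayes), with group as the only term, two-sided, with Benjamini-Hochberg adjustment. The script was tested on simulated data. The 5 arrays limit precision. The p-values set each difference against the spread between arrays of 1 group, which limma moderates by that of other probe sets. The 34 genes and all lists were chosen with earlier results of these data known. Each of the 34 is reported. Other pathway genes are named at unadjusted p under 0.05 or with separated groups, as are defining tubule markers and all podocyte markers measured. Plvap, Slc2a1 and Vegfa were picked after their values were seen. Alternatives were other scalings, pseudocounts of 1 and 64, filters, priors, array weights, the animal number as a block, mean probe sets, annotated symbols and leaving out each array.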

Additional observations from a re-analysis of the deposited data

How the results depend on the processing

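All 16 alternatives were run, and no gene of the 34 with an unadjusted p under 0.05 changed sign in any. Annotated symbols and mean probe sets could not change the sign of these genes, each with 1 probe set and no updated symbol. The number of probe sets past adjusted p 0.05 in limma, 0 in the main setting with 1477 higher and 1840 lower at unadjusted p under 0.05, was 52 as deposited, 29 after centring, 1 and 118 at pseudocounts of 1 and 64, 386 among probe sets brighter than the median, 329 among those with 1 symbol and 207 with a trended and robust prior. The 34 genes gave 0 calls except 1, Epas1, under each of the 2 filters, by brightness and by symbol. Both filters leave fewer probe sets to test, and limma was also fitted anew on the kept ones. The unadjusted limma p of Epas1 was 0.000804 and 0.000564 under them, against 0.00227 in the main setting. Genes higher at unadjusted p under 0.05 (3) were 0 as deposited, 6 at a pseudocount of 64 and 6 with the trended prior. Separated higher genes (8) were 3 as deposited, and the median (0.07) was -0.10. Leaving out single arrays gave 1 to 3 lower and 0 to 5 higher genes at unadjusted p under 0.05, 5 to 11 lower and 8 to 17 higher genes with separated groups, and medians of -0.01 to 0.16; with 1 untreated array left, it is assumed to vary like the C-peptide arrays. The animal numbers recur in both groups, and deviations of same-numbered arrays had r = -0.02 and 0.01. With 2 untreated arrays their deviations from the mean are exact opposites. These r values therefore cannot decide whether the arrays are paired. With the animal number as a replicate block, 1 gene was higher (P4ha1) and 2 lower (Epas1 and Egln3). The cause of the shifts between settings was not tested. Signal over background could not be judged, since no detection calls were used here.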
